A study of Mus musculus with 4 samples.

Results

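Histone chaperones are proteins that bind histones outside the nucleosome, carry them into the nucleus and hand them to DNA or take them off it. The 10 genes described here, out of 16861 listed in each library, were taken by symbol: Npm2, Asf1a, Asf1b, Nasp, Chaf1a, Hira, Cabin1, Ubn1, Daxx and Atrx. They were measured in fully grown germinal vesicle (GV) oocytes, which are arrested before meiotic maturation, from 3-week-old female C57BL/6J mice. The labels give no treatment and no altered allele for any of the 4 libraries. Of these, 2 were made from non-surrounded nucleolus (NSN) oocytes, whose chromatin is spread through the nucleus, and 2 from surrounded nucleolus (SN) oocytes, whose condensed chromatin rings the nucleolus. The oocytes came from antral follicles, were freed of cumulus cells and sorted by Hoechst staining, and 15 oocytes went into each library. The comparison asks which transcripts differ between these chromatin configurations. The cDNA was primed at the poly(A) tail, and the labels do not say whether replicates came from separate mice, so the p-values measure the spread between these libraries.

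Histones H3 and H4 reach DNA along a relay. NASP keeps a soluble store of H3-H4, ASF1 receives H3-H4 dimers, and ASF1 passes them either to CAF-1, which deposits the replicative H3 forms behind DNA synthesis, or to the HIRA complex, which deposits the variant H3.3 without DNA synthesis. DAXX with ATRX is another H3.3 route, at telomeres and pericentric heterochromatin. Nucleoplasmin, the product of Npm2, is the abundant chaperone stored in eggs. It binds H2A-H2B, helps to unpack sperm chromatin after fertilisation, and is known from null mice to be needed for heterochromatin to gather around the nucleolus of the oocyte. A grown oocyte stores these proteins and their mRNAs for the embryo.

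Of the 10 genes, 9 had a promoter entry in the RefSeq table of GRCm38.p6, a window of 300 bases around the start of the gene. Npm2 had none. The promoters of Chaf1a, called higher in SN oocytes on the values as deposited, and of Asf1b, which passed no test, are printed 5′ to 3′. Asf1b is another chaperone of the replication route, and these promoters were chosen because the same short motifs fall in them differently. Capitals mark the CCAAT box (CCAAT or, on the other strand, ATTGG) and the E2F motif (TTCCCGC or TTGGCGC on either strand).
Chaf1a promoter (chr17:56040166-56040465, plus strand): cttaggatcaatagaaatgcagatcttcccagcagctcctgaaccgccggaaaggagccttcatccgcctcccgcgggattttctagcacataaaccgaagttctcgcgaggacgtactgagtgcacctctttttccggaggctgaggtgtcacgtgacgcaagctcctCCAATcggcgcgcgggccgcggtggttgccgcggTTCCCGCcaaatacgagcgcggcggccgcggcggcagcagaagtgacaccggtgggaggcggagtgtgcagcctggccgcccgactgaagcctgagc
Asf1b promoter (chr8:83955444-83955743, plus strand): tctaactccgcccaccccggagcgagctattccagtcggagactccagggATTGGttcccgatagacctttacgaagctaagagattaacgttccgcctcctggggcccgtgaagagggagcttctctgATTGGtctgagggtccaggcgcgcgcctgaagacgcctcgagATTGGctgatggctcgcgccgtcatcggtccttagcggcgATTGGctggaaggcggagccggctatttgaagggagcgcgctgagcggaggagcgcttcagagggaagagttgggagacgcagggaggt
The Chaf1a promoter holds 1 CCAAT box and 1 E2F motif, which do not overlap, and the Asf1b promoter holds 4 CCAAT boxes and no E2F motif. A CCAAT box was found in 8 of the 9 genes with an entry, against 37.4% of all 32851 promoters of this length in the table, a gene with several entries being counted if any held it. The E2F motif was found in Chaf1a and Atrx, against 6.81% of all promoters. The E-box CACGTG, not capitalised above, was found in Chaf1a and Ubn1, against 7.15%. These are matches of letters, chosen after the sequences were seen, and not evidence of a bound site. Their part in the transcript levels was not tested. The study saw hardly any signal of EU, which labels newly made RNA, in SN oocytes. It proposes that RNA-seq does not accurately show how active transcription is in oocytes. A higher FPKM in SN libraries is therefore not read here as promoter activity.

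The deposited values are FPKM, in which fragments are scaled by gene length and by library total, so levels compare genes per length. Library totals, recovered from the FPKM, ran from 17069772 to 17998361 read pairs, and 3 read pairs on a gene of 1 kb give an FPKM of 0.167 to 0.176. Read pairs copied by PCR are not separate molecules, so this limit holds for counting error alone. All 8 oocyte marker genes were present, at 18.3 to 7281 FPKM. Of 14 granulosa and cumulus marker genes 10 were listed, 6 of them under 1 FPKM in every library. The summed level of the 10 was 9.64 and 13.8 FPKM in NSN and 14.1 and 13.9 in SN libraries. Cyp19a1 alone had 5.81 to 8.38 FPKM, and without it the sum was 3.83 and 5.70 in NSN and 5.69 and 5.66 in SN libraries. In bulk libraries of pooled oocytes, fewer cells of a type and less RNA per cell cannot be told apart.

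The chaperone transcripts spanned a wide range of levels. In mean FPKM over the 4 libraries their order was Npm2 (2930), Asf1a (213), Nasp (92.9), Asf1b (84.5), Atrx (28.6), Chaf1a (17.0), Ubn1 (9.17), Daxx (6.13), Cabin1 (4.26) and Hira (0.261). Npm2 ranked 19th of the 16861 genes and stood 13.7-fold above Asf1a, the next member. Nasp and Asf1b were the only neighbours in this order whose library values overlapped, and Nasp was still the higher of the pair in 4 of 4 libraries. The library ranges of all other neighbours did not overlap, although Daxx and Cabin1, and Atrx and Chaf1a, differed in mean by less than the libraries of the first of each pair differed among themselves. The chaperones of the H3-H4 relay that precede deposition, ASF1 and NASP, thus had higher levels per length than Chaf1a, Ubn1, Cabin1, Daxx and Atrx. The value listed for Hira is set aside here, since it rests on few read pairs and 72.9% of its canonical transcript overlaps exons of other genes. This shared part is also large for Asf1a (68.8%) and Chaf1a (50.0%). Its effect on their places in this order was not tested.

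**Figure D1:**
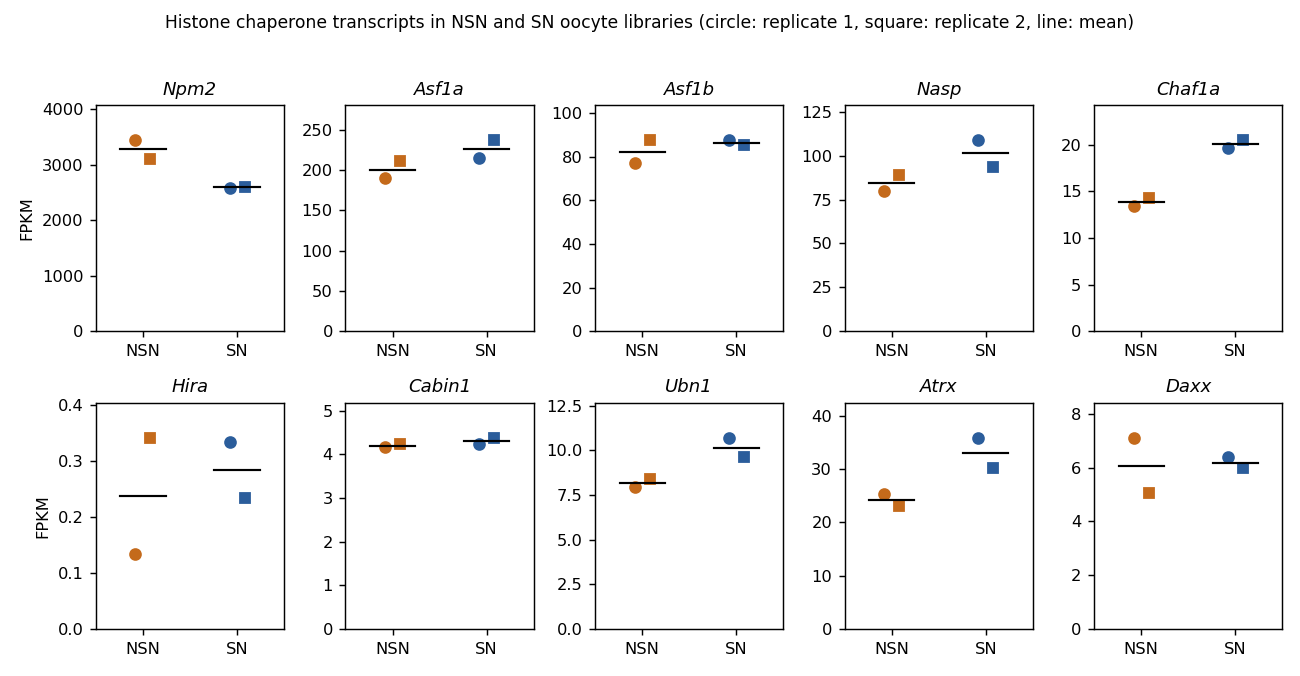
FPKM of each of the 10 histone chaperone genes (vertical axes, each from 0) in the NSN and SN libraries, with circles for replicate 1, squares for replicate 2 and a line at the mean of each group. Npm2 is lower in both SN libraries, Chaf1a and Atrx are higher in both, and the groups overlap for Asf1b, Daxx and Hira.

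SN was compared with NSN by limma on log2(FPKM + 0.5) in the 11672 genes whose mean FPKM reached 0.5. Fold changes are on this scale, which understates those of low genes. Calls required that p stayed under 0.05 after Benjamini-Hochberg adjustment over all these genes and that the fold change reached 1.2. Hira missed the filter on low values, so 9 of the 10 members were tested. Chaf1a rose and Npm2 fell, so 2 of 9 members were called, beside 7.93% of all genes tested (5.95% higher and 1.98% lower in SN). Unadjusted p fell under 0.05 for 5 members (Npm2, Chaf1a, Atrx, Ubn1 and Nasp), beside 31.7% of all genes. A log2 fold change above 0 was found for 8 of 9 members, beside 66.7% of all genes, and the members' median was 0.17 beside 0.14 over all genes tested. The groups did not overlap in 7 members, beside 62.6% of all genes, with the SN libraries above in 6 (44.8% of all genes) and below in 1 (17.8%). With 9 genes, counts of this size are too few to set the members apart from these background shares.

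The median gene tested was itself higher in SN by 0.14 on the log2 scale. FPKM are shares of a library, and the 100 genes with the highest mean FPKM held 38.0% and 37.0% of the read pairs in NSN libraries and 33.8% and 33.7% in SN libraries. The part of this change in the higher median gene was not tested. Relative to the median gene, 5 of the 9 members were higher and 4 were lower. The calls over all genes were 695 higher and 231 lower on the FPKM as deposited, and 77 higher and 184 lower once the libraries were scaled to the same median. Median scaling left 0 of the 9 members called by limma, with 2 at an unadjusted p under 0.05, beside 27.0% of all genes.

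**Figure D2:**
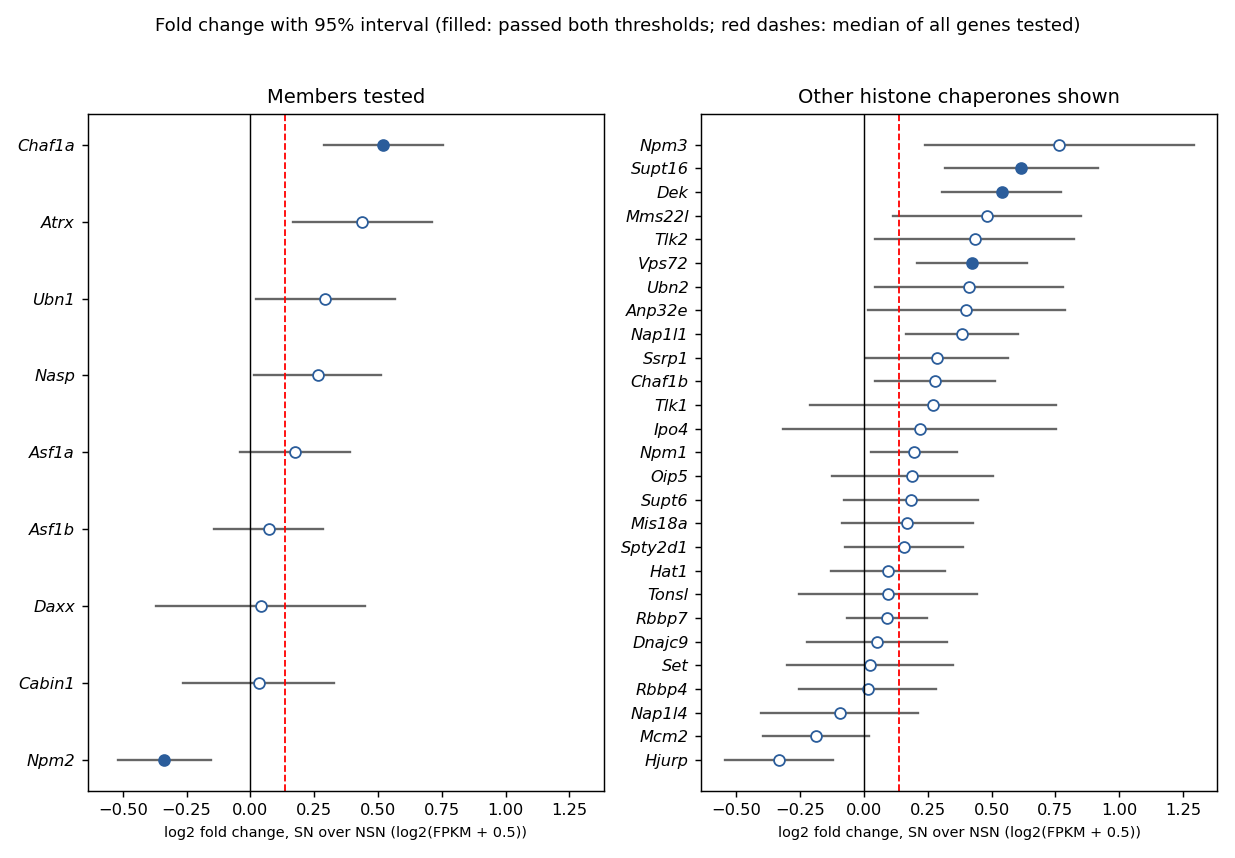
Log2 fold change of SN over NSN with its 95% interval from limma for the 9 members tested (left) and for the other histone chaperones reported here (right), with filled circles for genes past both thresholds and a dashed line at the median of all genes, 0.14. Chaf1a and Npm2 are filled among the members, and Supt16, Dek and Vps72 among the others.

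Npm2 (ENSMUSG00000047911.8, GRCm39 chromosome 14 from 70884736 to 70896684, minus strand) had 3443 and 3102 FPKM in NSN libraries and 2582 and 2591 in SN libraries. The 2 SN libraries were nearly equal and both lay below the NSN libraries, which differed more between themselves. The means were 3273 ± 241 in NSN and 2587 ± 6.97 in SN (SD, n = 2). Its log2 fold change was -0.34 (SE 0.08, 95% interval -0.52 to -0.16, limma adjusted p = 0.048), and it was -0.48 relative to the median gene. These values rest on 43935 to 59765 read pairs per library, and no exon of its canonical transcript is shared with another annotated gene. The longest stretch identical to the Npm1 transcript is 14 bases, and to the Npm3 transcript 11 bases.

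Nucleoplasmin mRNA took 0.343% and 0.309% of all read pairs in NSN libraries and 0.257% and 0.258% in SN libraries. Among the 100 genes with the highest mean FPKM, the median log2 fold change was -0.05, 17 genes were called lower and 1 higher, and 17 had a lower fold change than Npm2. The summed level of the 8 oocyte marker genes moved with it, from 21871 and 20502 FPKM in NSN to 14662 and 13876 in SN libraries. Of these genes Ooep (log2 fold change -0.20, limma adjusted p = 0.22) and Figla (-0.15, adjusted p = 0.33) were not called, and the others were called lower. The part of these shifts in the lower Npm2 value was not tested. The call for Npm2 held in 4 of 12 other settings, over which its log2 fold change ran from -0.50 with median scaling to -0.05 with quantile normalization and its adjusted p from 0.0047 to 0.65. It was lost with each library left out, at -0.26 without NSN replicate 1, -0.41 without NSN replicate 2, -0.33 without SN replicate 1 and -0.34 without SN replicate 2.

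Ratios between genes within a library do not depend on its total, and 8 were computed. The ratio of Npm2 to Npm1, which encodes the ubiquitous nucleolar relative of nucleoplasmin, was 25.04 and 23.0 in NSN libraries and 16.4 and 16.7 in SN libraries. The ratio of Npm2 to Asf1a was 18.1 and 14.7 in NSN and 12.0 and 10.9 in SN libraries. The ratio of Npm2 to H3f3b, a gene for H3.3, was 4.03 and 3.66 in NSN and 3.14 and 2.88 in SN libraries. The SN libraries lay below the NSN libraries in each of these 3 ratios. For Npm1 and Asf1a this was fixed by the levels already given, since Npm2 was lower and both were higher in both SN libraries. All 3 ratios use the same Npm2 values, so they add no separate support to its call. With 2 libraries against 2, an exact two-sided permutation test cannot give a p below 0.333, which is its value for 7 of the 8 ratios (0.381 adjusted over the 8).

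**Figure D3:**
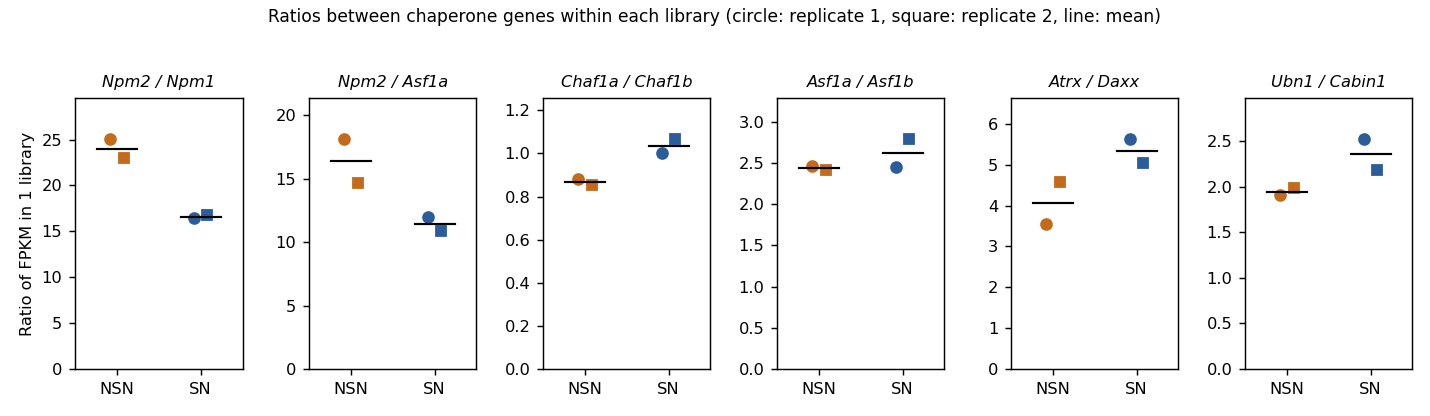
Ratio of the FPKM of 2 chaperone genes within each library (vertical axes, each from 0) for 6 of the 8 gene pairs, with circles for replicate 1, squares for replicate 2 and a line at the mean of each group. Npm2 over Npm1 is 23.0 to 25.04 in NSN and 16.4 to 16.7 in SN libraries, whereas Asf1a over Asf1b overlaps between the groups.

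Asf1a and Asf1b encode the paralogous ASF1 proteins, of which ASF1B is tied to dividing cells. Asf1a (ENSMUSG00000019857.9, chromosome 10 from 53472853 to 53486925, plus strand) had 190 and 211 FPKM in NSN and 215 and 238 in SN libraries. Both SN libraries lay above both NSN libraries, but by less than the replicates differed, and the log2 fold change of 0.17 (SE 0.09, 95% interval -0.04 to 0.39) did not pass (limma adjusted p = 0.23). Of its canonical transcript, 68.8% overlaps exons of Mcm9 on the opposite strand, which had 1.86 to 2.32 FPKM, and counting was done without strand. Asf1b (ENSMUSG00000005470.10, chromosome 8 from 84681589 to 84696978, plus strand), whose promoter with 4 CCAAT boxes is printed above, had 77.3 and 87.5 FPKM in NSN and 87.7 and 85.3 in SN libraries. The groups overlapped, and the log2 fold change of 0.07 (SE 0.09, limma adjusted p = 0.61) turned to -0.09 with median scaling. Its 95% interval, -0.14 to 0.29, leaves room for a change of either sign.

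The ratio of Asf1a to Asf1b was 2.46 and 2.41 in NSN and 2.45 and 2.79 in SN libraries, and here the groups overlapped (exact permutation p = 0.667). Their canonical transcripts share no identical stretch longer than 20 bases.

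Nasp (ENSMUSG00000028693.17, chromosome 4 from 116458246 to 116485215, minus strand), the keeper of the soluble H3-H4 store, had 79.7 and 88.9 FPKM in NSN and 109 and 93.8 in SN libraries. The higher NSN library and the lower SN library were close, although the groups did not overlap. The log2 fold change was 0.26 (SE 0.10, 95% interval 0.02 to 0.51) and did not pass (limma adjusted p = 0.14). Relative to Asf1b, Nasp stood at 1.03 and 1.02 in NSN and 1.24 and 1.10 in SN libraries.

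Chaf1a encodes the largest subunit of CAF-1, the chaperone that works with the replication clamp PCNA. Chaf1a (ENSMUSG00000002835.11, chromosome 17 from 56347303 to 56379289, plus strand) had 13.4 and 14.3 FPKM in NSN libraries and 19.7 and 20.5 in SN libraries. The gap between the groups was several times the difference between replicates, with means of 13.9 ± 0.640 in NSN and 20.1 ± 0.595 in SN (SD, n = 2). Its transcript rose 1.44-fold (log2 fold change 0.52, SE 0.10, 95% interval 0.29 to 0.75, limma adjusted p = 0.039), and by 0.38 on the log2 scale relative to the median gene. The values rest on 1293 to 2046 read pairs per library.

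Of the canonical Chaf1a transcript, 50.0% overlaps exons of Ubxn6 on the opposite strand. Ubxn6 had 1.01 and 1.42 FPKM in NSN and 1.29 and 1.64 in SN libraries, and its log2 fold change was 0.20 (adjusted p by limma 0.51). The call for Chaf1a held in 5 of 12 other settings, with log2 fold changes from 0.34 to 0.54 and adjusted p from 0.0027 to 0.14. It held without NSN replicate 2 (0.57) and was lost without NSN replicate 1 (0.48), SN replicate 1 (0.55) or SN replicate 2 (0.49).

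The partner subunit gene Chaf1b had 15.2 and 16.7 FPKM in NSN and 19.7 and 19.3 in SN libraries, with a log2 fold change of 0.28 that did not pass (SE 0.10, limma adjusted p = 0.11). Per length, Chaf1a was below Chaf1b in both NSN libraries, at ratios of 0.880 and 0.856, and level with or above it in the SN libraries, at 1.002 and 1.07. The groups did not overlap in this ratio, in which library totals cancel. Exons of other genes share 50.0% of the canonical Chaf1a transcript and 0% of that of Chaf1b. The part of this difference in the ratio was not tested, so which of the genes had the higher level is uncertain.

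The HIRA complex consists of HIRA with UBN1, which contacts H3.3 directly, and CABIN1. Ubn1 (ENSMUSG00000039473.10, chromosome 16 from 4867232 to 4904153, plus strand) had 7.96 and 8.40 FPKM in NSN and 10.7 and 9.60 in SN libraries. Both SN libraries were the higher, but the log2 fold change of 0.29 (SE 0.11, 95% interval 0.02 to 0.57) did not pass (limma adjusted p = 0.14). Cabin1 (ENSMUSG00000020196.12, chromosome 10 from 75481942 to 75600193, minus strand) was the steadiest member, with 4.17 and 4.23 FPKM in NSN and 4.24 and 4.38 in SN libraries. Its log2 fold change of 0.03 (SE 0.12, 95% interval -0.26 to 0.33, limma adjusted p = 0.88) turned to -0.11 with median scaling, and changes in either direction within that interval remain possible. The ratio of Ubn1 to Cabin1 was 1.91 and 1.98 in NSN and 2.52 and 2.19 in SN libraries, without overlap.

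Hira (ENSMUSG00000022702.18, chromosome 16 from 18695787 to 18789059, plus strand) is listed at 0.133 and 0.342 FPKM in NSN and 0.334 and 0.235 in SN libraries, from 11 to 29 read pairs per library. The groups overlapped. Of its canonical transcript, 72.9% overlaps exons of other annotated genes, and 65.9% those of Gm28539, a protein-coding locus on the same strand that was not analysed here. The counting options stated in the study's methods do not include the option to assign a pair to more than 1 gene, without which featureCounts leaves out pairs that overlap several genes. The part of this overlap in the value was not tested, and the low FPKM of Hira cannot be read as a low level of its mRNA.

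Atrx encodes the chromatin remodeller that partners DAXX and is found on pericentric heterochromatin in mouse oocytes. Atrx (ENSMUSG00000031229.18, chromosome X from 104841131 to 104973014, minus strand) had 25.3 and 23.1 FPKM in NSN and 35.9 and 30.2 in SN libraries. Both SN libraries stood above both NSN libraries, with means of 24.2 ± 1.57 in NSN and 33.1 ± 4.03 in SN (SD, n = 2). The log2 fold change of 0.44 (SE 0.11, 95% interval 0.17 to 0.71) missed the threshold at a limma adjusted p of 0.063. It passed among genes whose mean FPKM reached 5 (adjusted p = 0.027) and by voom on read pairs (0.0061), and its adjusted p ran from 0.0061 to 0.42 over all alternatives, the length correction giving a log2 fold change of 0.17.

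Daxx (ENSMUSG00000002307.18, chromosome 17 from 34128384 to 34134564, plus strand), which carries H3.3 to ATRX, had 7.11 and 5.04 FPKM in NSN and 6.39 and 5.98 in SN libraries. Both SN libraries fell between the NSN libraries, and the log2 fold change of 0.04 (SE 0.17, 95% interval -0.37 to 0.45, limma adjusted p = 0.89) turned to -0.11 with median scaling. Daxx had the widest interval of the members tested. The ratio of Atrx to Daxx was 3.56 and 4.58 in NSN and 5.63 and 5.06 in SN libraries, and the groups did not overlap.

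**Figure D4:**
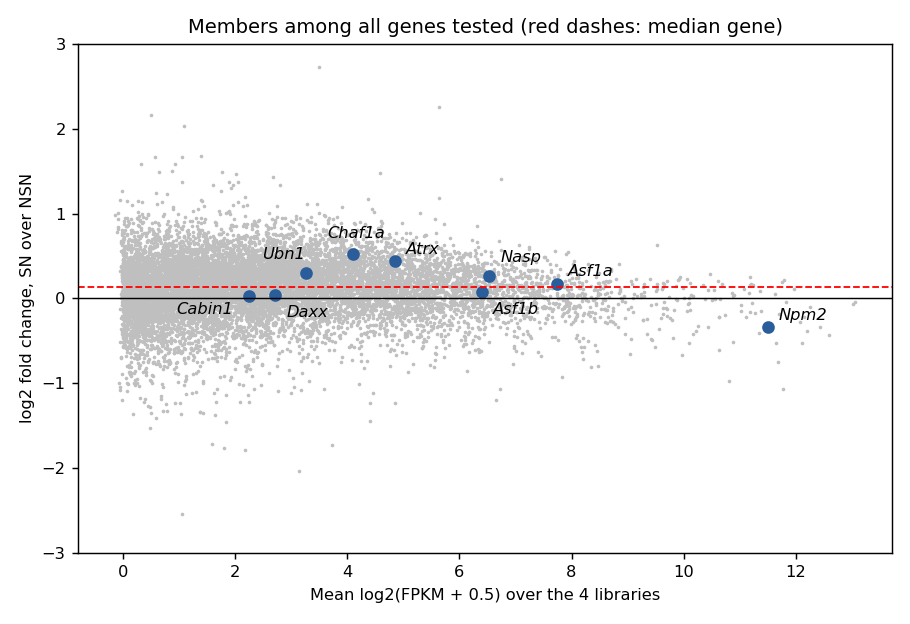
Log2 fold change of SN over NSN (vertical axis) against mean log2(FPKM + 0.5) over the 4 libraries (horizontal axis) for the 11672 genes tested (grey) and the 9 members tested (blue), with a dashed line at the median gene, 0.14. Npm2 lies at the right, among the most abundant transcripts and below 0, and Chaf1a and Atrx lie above the dashed line.

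The H3.3 genes, whose product the HIRA and DAXX routes carry, passed no test. H3f3b had 855 and 848 FPKM in NSN and 823 and 900 in SN libraries, with a log2 fold change of 0.02 (SE 0.07, 95% interval -0.16 to 0.19, limma adjusted p = 0.91) that turned to -0.15 with median scaling. H3f3a had 220 and 256 FPKM in NSN and 212 and 223 in SN libraries, with a log2 fold change of -0.13 (SE 0.09, limma adjusted p = 0.38). The groups overlapped for both genes.

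Among 29 other histone chaperone genes 28 were tested, of which 4 rose (among them Supt16, Dek and Vps72) and 0 fell, beside 5.95% and 1.98% of all genes. Voom on read pairs called 8 of them higher and 1 lower, beside 15.1% and 4.59% of all genes, and by limma 14 had an unadjusted p under 0.05, beside 31.7% of all genes. Of those 14, Hjurp, the chaperone of CENP-A, was the gene below 0 (log2 fold change -0.33, adjusted p = 0.064), and it is named here after its value was seen. Supt16, the larger subunit of FACT, which handles H2A-H2B during transcription, had 18.2 and 22.8 FPKM in NSN and 32.4 and 30.5 in SN libraries (log2 fold change 0.62, limma adjusted p = 0.044). Dek, a chromatin protein with H3.3 chaperone activity, had 36.8 and 40.0 FPKM in NSN and 59.3 and 52.8 in SN libraries (0.54, adjusted p = 0.038). Vps72, a chaperone of H2A.Z, had 72.6 and 76.3 FPKM in NSN and 94.0 and 106 in SN libraries (0.42, adjusted p = 0.045). In these 3 genes both SN libraries lay above both NSN libraries, as they did for Chaf1a and for 44.8% of all genes tested. A call as higher in these same libraries favours such genes, so this adds no support to the calls.

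The number of these genes called was 4 with a pseudocount of 1, 6 over genes above a mean FPKM of 5 and 5 by voom under median scaling. By limma with median scaling it was 0, with 8 of the 28 genes at an unadjusted p under 0.05, close to the 27.0% of all genes. The calls numbered 0 without NSN replicate 1, SN replicate 1 or SN replicate 2 and 4 without NSN replicate 2. Of the canonical Dek transcript, 53.1% overlaps exons of Kdm1b on the opposite strand, and Kdm1b itself went the other way, from 27.7 and 24.1 FPKM in NSN to 15.5 and 10.2 in SN libraries (log2 fold change -1.01, adjusted p = 0.041). How pairs on those exons entered the Dek value was not tested.

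The gene with the highest mean FPKM in each other role group gave no further call by limma on the values as deposited. Rbbp7, an H3-H4 binding subunit shared by several chromatin complexes, had 2516 and 2593 FPKM in NSN and 2727 and 2711 in SN libraries and ranked 21st of all genes. Its log2 fold change was 0.09 (SE 0.07, limma adjusted p = 0.38) and turned to -0.07 with median scaling. Npm1 had 138 and 135 FPKM in NSN and 157 and 155 in SN libraries (log2 fold change 0.20, adjusted p = 0.12), the opposite sign to Npm2. The others were Nap1l1, a chaperone of H2A-H2B (0.38, adjusted p = 0.053), Ubn2, the relative of Ubn1 (0.41, adjusted p = 0.13), and Mis18a, which acts in CENP-A loading (0.17, adjusted p = 0.32). Nap1l1 passed among genes above a mean FPKM of 5 (adjusted p = 0.026) and by voom (0.012), and its adjusted p ran from 0.012 to 0.25 over all alternatives. Ubn2 passed by voom (0.014), with a range of 0.014 to 0.60.

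**Figure D5:**
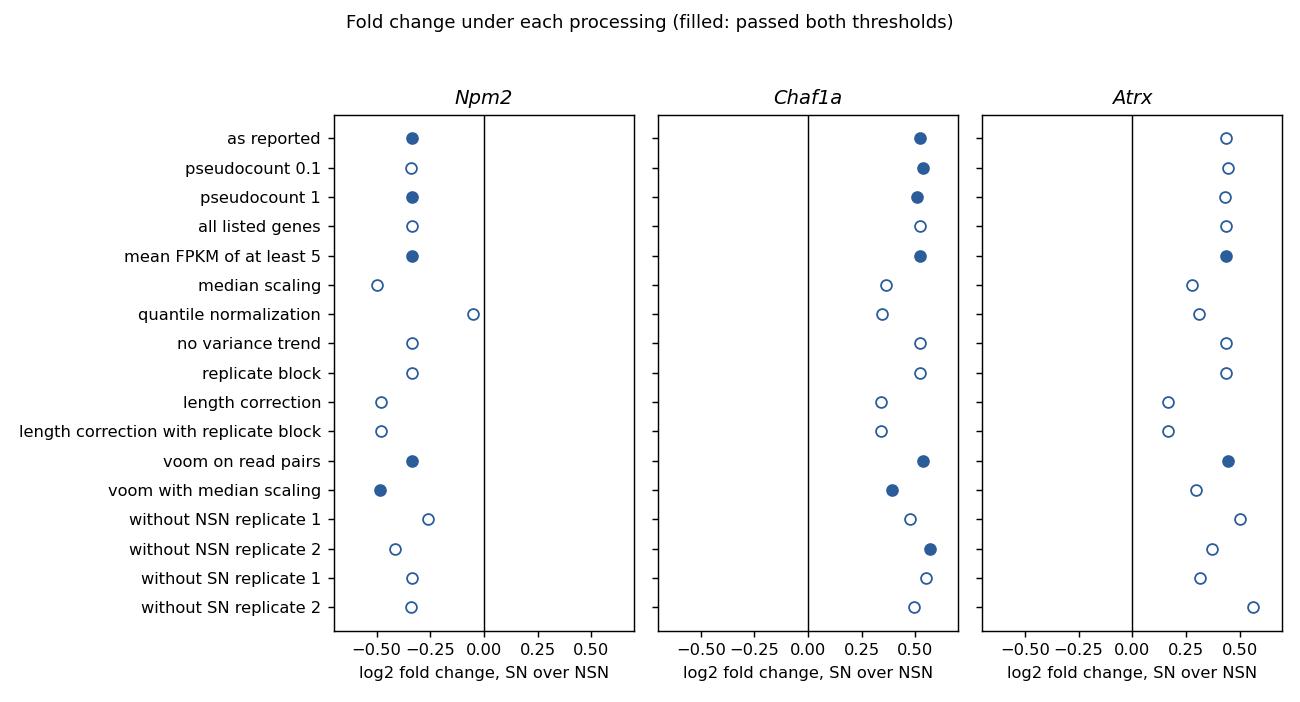
Log2 fold change of SN over NSN (horizontal axes) for Npm2, Chaf1a and Atrx under each processing setting (rows), with filled circles where the gene passed both thresholds. Npm2 stays below 0 in every row, from -0.50 to -0.05, and Chaf1a and Atrx stay above 0, while filled circles appear in some rows only.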

How the data were processed

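RNA-seq libraries of 15 GV oocytes each (2 NSN, 2 SN) were made by Smart-seq2. The authors trimmed reads with Trim Galore 0.6.10, mapped them to GRCm39 with HISAT2 and counted primary read pairs with a mapping quality of at least 10 on GENCODE exons with featureCounts, without strand, and deposited FPKM from their own script. Their DESeq2 comparison was not used here. Since FPKM are relative to the library total, a smaller share for abundant genes leaves a larger summed share for the others.

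Groups follow the sample titles. Whole read pairs were recovered for 16843 of 16861 genes (99.9%, to a relative tolerance of 1e-06) from 5 mitochondrial tRNA genes of known length. Log2(FPKM + 0.5) was tested two-sided with limma 3.58.1 in R 4.3.3 (lmFit, eBayes with a variance trend) over genes whose mean FPKM reached 0.5. The procedure was also run on simulated read pairs. These held no shift common to most genes, so that run does not measure how often calls in these data are false. Ratios were compared by an exact permutation test in Python 3.11.15. A level of 3 read pairs served only to express the counting limit as FPKM, and no value was removed or raised by it. Positions and exon overlaps came from a later GENCODE release on GRCm39, and promoters from RefSeq on GRCm38.p6.

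Named genes were all members, every called gene and the most abundant gene of each role in a list of 29 other chaperones, and the H3.3 genes. The values of 1 called gene are not reported here. Some other gene symbols are named because their exons overlap a named gene, but not every such overlap is described above. Exons of other genes also overlap the canonical transcripts of Hjurp (30.2%), Supt16 (25.2%), Nasp (20.8%), Ubn1 (15.6%) and Vps72 (13.7%). Smaller parts are shared for Rbbp7 (8.1%), H3f3a (7.0%), Ubn2 (6.4%) and Daxx (6.0%). The effect of these overlaps on the values was not tested. Members and lists were chosen with earlier results of these data known. Alternatives were pseudocounts of 0.1 and 1, no filter or a minimum mean FPKM of 5, median and quantile scaling, no variance trend, a replicate block, a loess correction for length (span 0.3) with and without the block, voom on read pairs with total or median scaling, and each library left out in turn, where the lone library is assumed to vary like the others.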

Additional observations from a re-analysis of the deposited data

How the results depend on the processing

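Of the 2 members called, 2 stayed with a pseudocount of 1 and with voom under median scaling, 3 were called above a mean FPKM of 5 and by voom, 1 at a pseudocount of 0.1, and 0 with the replicate block, no variance trend, quantile normalization, median scaling, all listed genes, and the length correction with or without the block. Where 0 were called, limma gave 2 to 5 members an unadjusted p under 0.05. Of the 28 other chaperones tested, 4 were called, and 0 in those same 7 settings, 3 at a pseudocount of 0.1, 4 at a pseudocount of 1, 5 by voom under median scaling, 6 above a mean FPKM of 5 and 9 by voom. Over all genes 926 were called, and 1496 above a mean FPKM of 5, 261 with median scaling, 230 with quantile normalization, 422 with the replicate block, 143 with the length correction, 2298 by voom and 1752 by voom under median scaling. There were 0 calls with all listed genes (4092 at an unadjusted p under 0.05), no variance trend (3449) and the length correction with the block (2804). With each library left out, 0 to 1 members, 0 to 4 other chaperones and 0 to 1685 of all genes were called, the last being highest without NSN replicate 2 and lowest without NSN replicate 1. The members' median log2 fold change of 0.17 was 0.014 with median scaling and 0.028 by voom under median scaling, and 0.10 to 0.25 with a library left out.

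Signs turned only in genes that passed no test. Cabin1 was at -0.11 with median scaling, -0.12 with quantile normalization, -0.20 with the length correction with and without the block, and -0.11 by voom under median scaling. Asf1b was at -0.087 with median scaling, -0.075 by voom under median scaling and -0.017 without NSN replicate 1, the lowest of -0.017 to 0.16 with a library left out. Daxx was at -0.11, -0.13, -0.017 and -0.095 in the settings listed for Cabin1, -0.19 without NSN replicate 2 and -0.0038 without SN replicate 1, in a range of -0.19 to 0.27 with a library left out. H3f3b was at -0.15 with median scaling, -0.039 with the length correction with and without the block, -0.13 by voom under median scaling and -0.049 without SN replicate 2 (-0.049 to 0.080 with a library left out), and Rbbp7 at -0.070 and -0.057 under the 2 median scalings. The differences between replicates 1 and 2 correlated at -0.07 between NSN and SN. With 1 such difference per group, this does not settle whether libraries of the same number were collected together. The replicate block is therefore kept among the alternatives. The cause of these shifts was not tested. At this depth Hira, with 11 to 29 read pairs, is the member whose value counting error limits most.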
